A study of Mus musculus with 16 samples.

Results

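The 31 genes described here encode the enzymes of the tricarboxylic acid (TCA) cycle, the routes by which pyruvate and malate enter or leave it, the carriers that move citrate and dicarboxylates across the inner mitochondrial membrane, and Irg1, the enzyme that makes itaconate. They were taken by gene symbol from a table of 24421 symbols, by pathway, with earlier results of these data known, and all 31 were found and passed the filter on low counts. Their RNA was measured in macrophages sorted from mouse muscle as F4/80+ cells, F4/80 being a surface protein of mouse macrophages. The 4 groups were KO and WT macrophages from CTX-injected muscle (KO CTX and WT CTX) and KO and WT macrophages from normal muscle (KO normal and WT normal), with 4 libraries in each. KO macrophages were deficient in Glud1, glutamate dehydrogenase, per the design text, which sets undamaged muscle as the baseline against muscle taken when damage was greatest. The injected agent is named only as CTX, and the deleted part of Glud1, the cells in which it was deleted, and the age and strain of the mice are not given in the sources used here. Whether each library stems from its own mouse is not stated; p-values therefore describe library-to-library spread that could be technical.

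The TCA cycle oxidises acetyl-CoA in the mitochondrial matrix and passes the electrons to the respiratory chain. Pyruvate enters as acetyl-CoA through the pyruvate dehydrogenase complex or as oxaloacetate through pyruvate carboxylase, and citrate leaves through a carrier to supply the cytosol with acetyl-CoA for lipid synthesis. In macrophages activated by bacterial products, Irg1 (also named Acod1) turns the cycle intermediate cis-aconitate into itaconate, which inhibits succinate dehydrogenase. Glutamate dehydrogenase feeds the cycle at 2-oxoglutarate, so its product meets the enzymes measured here.

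Promoter sequences are shown for genes on which the results below turn. These are Irg1, the largest rise in CTX-injected muscle, the malate dehydrogenases Mdh2 and Mdh1, which moved apart, Dld, which rose, and Fh1, which fell. Each runs from 250 bases before to 50 bases after the annotated start, 5′ to 3′ on the strand of the gene. They come from RefSeq on GRCm38.p6, in which 28 of the 31 genes matched an entry and Idh3a, Me2 and Sdhc did not. Capitals mark the letters of a TATA box (TATAAA), of a CCAAT box (CCAAT or, on the other strand, ATTGG), of a cyclic AMP response element (TGACGTCA) and of an NRF1 motif.
Irg1, chr14:103046762-103047061, plus strand: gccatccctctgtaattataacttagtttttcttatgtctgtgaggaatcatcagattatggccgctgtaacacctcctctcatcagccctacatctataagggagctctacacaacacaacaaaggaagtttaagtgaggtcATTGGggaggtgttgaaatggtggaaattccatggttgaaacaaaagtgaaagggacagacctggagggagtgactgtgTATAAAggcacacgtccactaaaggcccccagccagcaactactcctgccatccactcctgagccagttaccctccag
Mdh2, chr5:135778399-135778698, plus strand: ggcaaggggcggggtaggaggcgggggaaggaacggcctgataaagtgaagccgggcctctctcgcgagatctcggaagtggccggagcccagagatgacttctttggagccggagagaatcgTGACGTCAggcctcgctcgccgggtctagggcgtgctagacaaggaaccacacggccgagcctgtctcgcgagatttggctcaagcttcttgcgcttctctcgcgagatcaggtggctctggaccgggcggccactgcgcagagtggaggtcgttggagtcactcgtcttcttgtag
Mdh1, chr11:21571885-21572184, minus strand: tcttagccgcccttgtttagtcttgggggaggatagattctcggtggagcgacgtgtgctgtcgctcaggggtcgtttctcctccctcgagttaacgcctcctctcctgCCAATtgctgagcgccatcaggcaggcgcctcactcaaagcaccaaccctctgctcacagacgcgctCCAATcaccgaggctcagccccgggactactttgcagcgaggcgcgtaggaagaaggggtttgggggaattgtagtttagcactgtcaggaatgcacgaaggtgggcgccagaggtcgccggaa
Dld, chr12:31351422-31351721, minus strand: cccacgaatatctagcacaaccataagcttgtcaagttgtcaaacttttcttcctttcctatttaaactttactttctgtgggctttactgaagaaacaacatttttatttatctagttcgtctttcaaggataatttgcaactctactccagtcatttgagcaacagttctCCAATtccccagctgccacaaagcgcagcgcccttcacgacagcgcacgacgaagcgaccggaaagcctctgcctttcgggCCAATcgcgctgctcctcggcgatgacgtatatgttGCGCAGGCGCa
Fh1, chr1:175625586-175625885, minus strand: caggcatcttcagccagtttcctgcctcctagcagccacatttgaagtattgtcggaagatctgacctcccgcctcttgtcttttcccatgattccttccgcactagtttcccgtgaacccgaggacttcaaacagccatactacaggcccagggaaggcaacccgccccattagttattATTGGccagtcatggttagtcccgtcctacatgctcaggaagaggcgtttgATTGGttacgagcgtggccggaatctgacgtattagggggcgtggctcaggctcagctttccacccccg

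The Irg1 promoter held TATAAA, the letters of a TATA box, 28 bases before its start. Irg1 was the only 1 of the 28 members (3.57%) with these letters on either strand. Of all 27025 genes with RefSeq promoters of the same length, 15.7% held them. A gene was counted where any of its promoters held the letters. The Mdh2 promoter held TGACGTCA, the letters of a cyclic AMP response element, which 2 of the 28 members (Mdh2 and Ogdh, 7.14%) and 2.03% of all genes held. The Dld promoter held an NRF1 motif, GCGCA, 1 base of any kind and GCGC, named for a regulator of mitochondrial genes. So did those of Sdha, Sdhd and Sucla2, making 4 of 28 members (14.3%) against 5.19% of all genes. CCAAT, the letters of a CCAAT box, was in 19 of 28 members (67.9%) and in 41.1% of all genes, and it stood in both rising (Irg1, Dld) and falling (Fh1) genes. Of the other letters searched on both strands, AAGGTCA was in 2 members (7.14%) and 5.38% of all genes, and CACGTG in 3 (10.7%) and 8.09%. TTTC repeated after 2 bases of any kind (an interferon response element) was in 1 (3.57%) and 3.99%. GGGA and TTCC separated by 2 bases of any kind (a kappa B site) were in 0 and 1.63%. These matches are descriptions of the letters in the windows.

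Library totals were 17051892 to 23097420 counts. All 8 macrophage markers listed were present, and their summed level was 14400 to 24600 CPM (read counts per library size, scaled with edgeR's TMM factors) in CTX and 9360 to 17000 CPM in normal libraries. Lyz2 was the most abundant of them in every library. By the edgeR test used below, 4 of the 8 were higher and 3 lower after CTX in KO, and 5 higher and 3 lower in WT. Csf1r stood at 1570 to 1810 CPM in CTX and 2560 to 3720 CPM in normal libraries. Markers of most other cells had lower sums in CTX than in normal libraries. The sums were 5.24 to 9.12 against 21.6 to 58.9 CPM for 12 muscle fibre genes and 54.3 to 99.9 against 185 to 888 CPM for 6 fibroblast genes. They were 53.9 to 98.9 against 362 to 665 CPM for 6 dendritic cell genes and 0.996 to 6.96 against 27 to 79.6 CPM for 8 T and NK cell genes. Of the dendritic cell genes, 5 were lower after CTX and 1, Xcr1, was higher, at 14.9 to 43 against 4.64 to 14.3 CPM. The sums of 4 mural genes (6.11 to 10.2 against 22.1 to 59.6 CPM), 6 endothelial genes (56 to 79.6 against 115 to 209 CPM) and 4 B cell genes (1.2 to 9.4 against 11.6 to 41.8 CPM) were ordered the same way. Those of 7 neutrophil genes (209 to 1180 against 244 to 6390 CPM) and 3 erythroid genes (4.98 to 10.6 against 0.519 to 11.5 CPM) overlapped. The 4 satellite cell and myoblast genes were under 1 CPM in every library, with Pax7 and Myog at 0 in all CTX libraries. These other cells move with the CTX comparison, and their part in the results below was not tested. In such bulk samples, fewer cells of a type and less RNA per cell cannot be told apart. A total of 3 normal libraries (KO 5, WT 5 and WT 6) held the female transcript Xist at 88.9 to 208 CPM, against at most 0.128 CPM elsewhere. KO normal library 5 and WT normal library 6 also held the most Malat1, a nuclear RNA (7301 and 6964 CPM), and each was the lowest library of its group for 21 of the 31 members. Glud1, the targeted gene, stood at 327, 334, 351 and 342 CPM in KO CTX, against 391, 386, 347 and 366 CPM in WT CTX libraries. In normal muscle it stood at 240, 238, 272 and 210 CPM in KO, against 258, 292, 253 and 218 CPM in WT libraries. The genotypes overlapped in both tissues, with log2 fold changes of -0.14 (95% interval -0.36 to 0.08) in CTX-injected and -0.09 (-0.31 to 0.13) in normal muscle. The counts over the whole gene do not check the genotype labels.

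Comparing CTX-injected with normal muscle asks how macrophages at the peak of damage differ from those of undamaged muscle. Most genes of the oxidative steps were higher after CTX, Irg1 by far the most, while pyruvate carboxylase, fumarase, the NADP-linked isocitrate dehydrogenases, Idh3g, Me2 and the dicarboxylate carrier Slc25a10 were lower. In KO macrophages 18 of the 31 genes were higher and 7 lower, and in WT macrophages 19 were higher and 7 lower. The test was edgeR's quasi-likelihood test, with Benjamini-Hochberg adjustment over all 13649 genes tested and a threshold of 0.05. The background was large, as 73.6% of all tested genes were called in KO (33.3% higher and 40.2% lower) and 72.7% in WT (33.3% higher and 39.4% lower). The members' share called either way, 80.6% in KO and 83.9% in WT, was near that background. Of the members, 58.1% in KO and 61.3% in WT were higher, against 33.3% of all genes in each. The median log2 fold change of the members was 0.44 in KO and 0.38 in WT, beside -0.16 and -0.15 for all genes tested. Libraries of the 2 tissues did not overlap for 24 members in KO and 24 in WT, against 66.8% and 65.5% of all tested genes.

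The direction of the milder changes depended on how libraries were scaled. TMM factors were 0.759 to 0.866 in CTX and 1.13 to 1.34 in normal libraries, and scaling by library totals alone placed the median of all tested genes lower by 0.61 in KO and 0.62 in WT on the log2 scale. On totals, 6 members were higher and 14 lower in KO, and 8 higher and 14 lower in WT. The share of rising genes among all calls was 18.6% in KO and 18.9% in WT, against 45.3% and 45.8% with TMM. With TMM, 24 members in KO and 22 in WT lay above the median of all genes, a count that a change of scaling factors hardly alters. Irg1, Mdh2, Idh3a, Dld, Dlat and Sdhc were higher in both genotypes, and Pcx, Fh1, Slc25a10, Idh1, Idh2, Idh3g and Me2 lower in both, under each of these scalings. The median of all genes was itself below 0 under each. Against that median with TMM, Me2 was at -0.06 in KO and -0.09 in WT, and Idh3g at -0.16 and -0.08. Idh1 was at -0.18 and -0.19, and Idh2 at -0.25 and -0.34. Fh1 was at -0.53 and -0.62, Slc25a10 at -0.71 and -0.83, and Pcx at -0.87 and -1.47. The words higher, lower, rose and fell below are those with TMM. On totals the sign turned in both genotypes for Pdhb, Idh3b, Sdha, Sdhd, Acly and Slc25a11, in KO for Me1, Ogdh and Sucla2, and in WT for Slc25a1, while Suclg1 in KO was at 0.00. Of the members not called with TMM, Aco1, Suclg2 and Mdh1 were called lower on totals in both genotypes, and Me1 in WT.

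**Figure D1:**
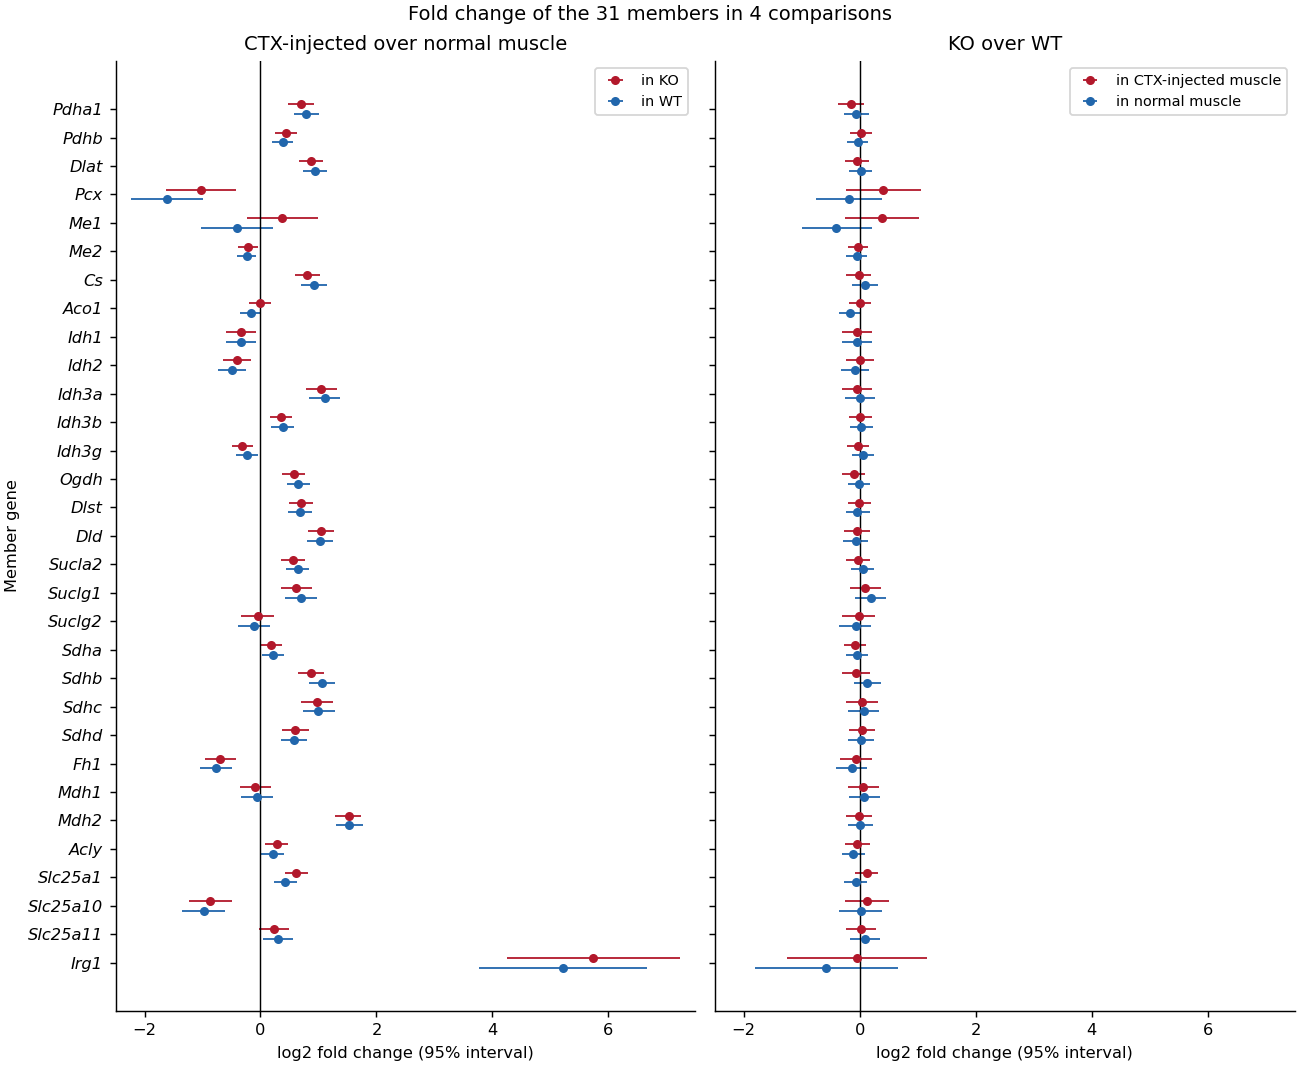
Log2 fold change (horizontal axis) of each of the 31 genes (vertical axis) with its 95% interval from the quasi-likelihood fit. The left panel sets CTX-injected over normal muscle in KO and in WT, where Irg1 lies at 5.74 and 5.22, and the right panel sets KO over WT in CTX-injected and in normal muscle, where no gene was called.

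Irg1, the cis-aconitate decarboxylase, showed the largest change of the 31 genes (chr14:103046977-103056573, GRCm38, GENCODE M21). It stood at 1610, 2310, 803 and 895 CPM in KO CTX, against 17, 18.9, 43.2 and 25.9 CPM in KO normal libraries. WT CTX libraries held 559, 640, 3650 and 974 CPM, against 16.2, 75.0, 35.7 and 29.7 CPM in WT normal libraries. Every CTX library lay above every normal library, and the libraries within a group were widely spread. The log2 fold change was 5.74 (SE 0.70, adjusted p = 2.38e-06, edgeR's quasi-likelihood test) in KO, a fold of 53.5, and 5.22 (SE 0.69, adjusted p = 5.14e-06) in WT, a fold of 37.2. WT CTX library 3 carried much of the WT value: without it the WT log2 fold change was 4.21 (adjusted p = 3.72e-06). The neutrophil markers summed to 209, 453, 467 and 348 CPM in WT CTX libraries 1 to 4, library 3 being the highest for this sum and for Irg1. By gene, library 3 was the highest of these for S100a8 (161 CPM) and Mmp8 (132 CPM). Library 2 was the highest for S100a9 (92.7 against 79.6 CPM in library 3), Camp (11.6 against 2.72), Ltf (32.8 against 6.71) and Ngp (58.4 against 10.4). Library 4 was the highest for Retnlg (77.4 against 74.7 CPM). In KO CTX libraries 1 to 4 the neutrophil markers summed to 926, 714, 299 and 1180 CPM. Normal libraries held 244 to 6390 CPM of these markers and 16.2 to 75 CPM of Irg1. The part of neutrophils in the Irg1 values was not tested.

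**Figure D2:**
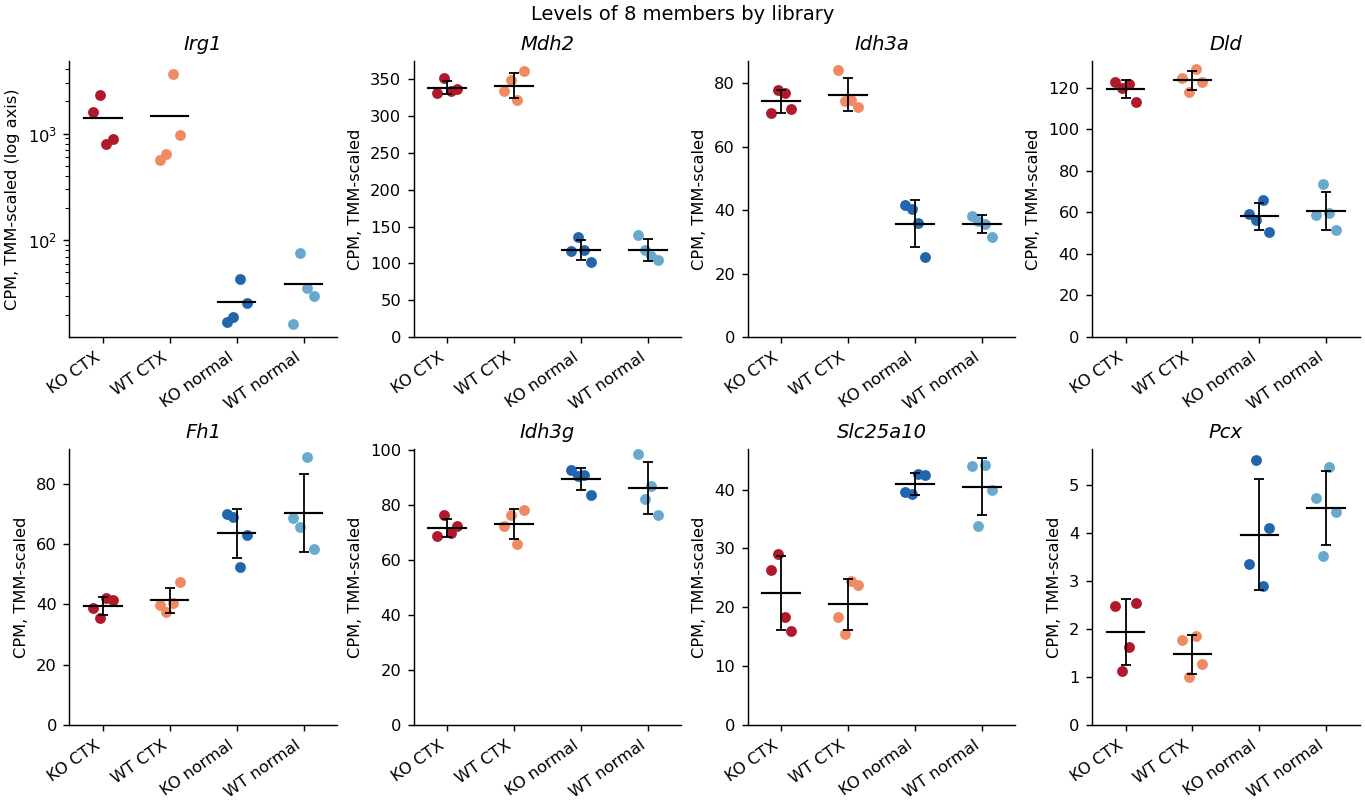
Level of 8 member genes in CPM scaled with TMM factors (vertical axis, logarithmic for Irg1) in each library of the 4 groups. Horizontal lines are group means and bars 1 SD (left out for Irg1), with n = 4 libraries a group; Irg1, Mdh2, Idh3a and Dld are higher and Fh1, Slc25a10 and Pcx lower in CTX libraries with no overlap, while Idh3g overlaps in WT.

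With TMM, the genes that bring pyruvate in as acetyl-CoA rose while pyruvate carboxylase fell. Of 4 genes, 3 were higher and 1 lower in both genotypes, though on library totals Dlat was the only 1 of the 3 called higher. With TMM, 33.3% of all tested genes were higher in each genotype, and 40.2% in KO and 39.4% in WT were lower. Pdha1 and Pdhb encode the subunits of the decarboxylating enzyme of the pyruvate dehydrogenase complex, and Dlat its acetyl-transferring core. Pdha1 averaged 78.0 ± 5.87 CPM in KO CTX and 47.9 ± 7.30 CPM in KO normal libraries (SD, n = 4 each), a log2 fold change of 0.70. It averaged 86.4 ± 2.77 CPM in WT CTX and 49.8 ± 3.79 CPM in WT normal libraries, a log2 fold change of 0.79. Dlat rose by 0.87 in KO and 0.94 in WT on the log2 scale, from the same fit (adjusted p = 9.58e-07 and 4.64e-07, edgeR). Pdhb rose by 0.44 and 0.38 with TMM, and was at -0.17 and -0.23 on library totals, still 0.59 and 0.53 above the median of all genes. Of the annotated exon bases of Pdha1, 16.1% overlap Map3k15 on the other strand, and the libraries keep no strand.

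Pcx, pyruvate carboxylase, which makes oxaloacetate from pyruvate (chr19:4510472-4621752), was scarce and fell. It stood at 2.48, 1.13, 1.62 and 2.54 CPM in KO CTX, against 3.35, 5.52, 2.90 and 4.10 CPM in KO normal libraries. WT CTX libraries held 1.76, 1.0, 1.86 and 1.26 CPM, against 4.73, 3.53, 5.38 and 4.43 CPM in WT normal libraries. All CTX libraries lay below all normal ones. The log2 fold change was -1.03 (SE 0.29, adjusted p = 0.0041, edgeR) in KO and -1.62 (SE 0.29, adjusted p = 0.000127) in WT. Of the malic enzymes, which make pyruvate from malate, the mitochondrial Me2 fell slightly, by 0.22 in KO and 0.24 in WT on the log2 scale (adjusted p = 0.0246 and 0.0144, edgeR). The call in KO was lost without KO CTX library 1 or 4 or KO normal library 1, 2 or 3 (log2 -0.21 to -0.18, adjusted p = 0.0522 to 0.0916), and the call in WT without WT normal library 2 or 3 (log2 -0.21, adjusted p = 0.0525 and 0.0505). The cytosolic Me1 averaged 1.01 ± 0.182 CPM in KO CTX and 0.779 ± 0.174 CPM in KO normal libraries. Its means were 0.771 ± 0.107 CPM in WT CTX and 1.03 ± 0.257 CPM in WT normal libraries, with neither difference called; on library totals the WT value was -1.03 (adjusted p = 0.00711, edgeR).

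At the citrate and isocitrate steps the members moved in both directions, 3 higher and 3 lower of 7 in each genotype with TMM, Idh3b among the higher ones turning to lower values on library totals. Beside this, 33.3% of all tested genes were higher in each genotype, and 40.2% in KO and 39.4% in WT were lower, with TMM. Cs, citrate synthase, the entry step of the cycle, averaged 240 ± 15.1 CPM in KO CTX and 137 ± 16.9 CPM in KO normal libraries. In WT it averaged 243 ± 11.3 CPM in WT CTX and 128 ± 13.3 CPM in WT normal libraries. Its log2 fold change was 0.81 in KO and 0.92 in WT (adjusted p = 3.65e-06 and 1.07e-06, edgeR). Aco1, the cytosolic aconitase that also binds RNA as an iron regulatory protein, was not called with TMM, at -0.01 in KO and -0.17 in WT. On library totals it was called lower in both, at -0.61 in KO and -0.79 in WT (adjusted p = 3.84e-05 and 2.86e-06, edgeR). In WT with TMM its adjusted p was 0.0793 by edgeR; it was 0.0446 without WT normal library 3 (log2 -0.22), and DESeq2's size factors and its Wald test also called it lower there (log2 -0.20, adjusted p = 0.0494 and 0.0401).

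The NAD-linked isocitrate dehydrogenase of the cycle is built of Idh3a, the catalytic subunit, with Idh3b and Idh3g, and these subunits did not move together. Idh3a (chr9:54586334-54604661) stood at 70.8, 77.8, 77.0 and 71.8 CPM in KO CTX, against 41.5, 40.5, 35.8 and 25.2 CPM in KO normal libraries. WT CTX libraries held 84.1, 74.6, 74.8 and 72.4 CPM, against 38.3, 36.5, 35.7 and 31.6 CPM in WT normal libraries. Each CTX library was well above each normal library, and the log2 fold change was 1.05 in KO (SE 0.13, adjusted p = 1.77e-06, edgeR) and 1.11 in WT (SE 0.13, adjusted p = 1.12e-06). Idh3b rose by 0.36 and 0.38 with TMM, but was at -0.26 and -0.24 on library totals. Idh3g fell, by 0.32 in KO (adjusted p = 0.00403, edgeR) and by 0.24 in WT (adjusted p = 0.0244). The WT call of Idh3g was lost without WT CTX library 1 or 3 or WT normal library 2 or 5 (log2 -0.23 to -0.17, adjusted p = 0.0554 to 0.107).

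The NADP-linked isocitrate dehydrogenases both fell. Idh1, the cytosolic form, averaged 115 ± 8.45 CPM in KO CTX and 144 ± 14.0 CPM in KO normal libraries. WT means were 118 ± 12.5 CPM in CTX and 150 ± 26.4 CPM in normal libraries, and the log2 fold changes were -0.33 and -0.34 (adjusted p = 0.0222 and 0.021, edgeR). That call was lost in KO without KO CTX library 3 or 4 or KO normal library 1, 2 or 3 (log2 -0.32 to -0.30, adjusted p = 0.0605 to 0.0677), and in WT without WT CTX library 1 or 2 or WT normal library 2 or 5 (log2 -0.31 to -0.25, adjusted p = 0.0563 to 0.0953). Idh2, the mitochondrial form, averaged 93.3 ± 4.54 CPM in KO CTX and 124 ± 9.98 CPM in KO normal libraries. It averaged 93.4 ± 11.4 CPM in WT CTX and 131 ± 20.5 CPM in WT normal libraries. Its log2 fold change was -0.41 in KO and -0.49 in WT (adjusted p = 0.00403 and 0.00107, edgeR).

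At the 2-oxoglutarate and succinyl-CoA steps, 5 of 6 genes rose in each genotype and none fell with TMM. Among all tested genes, 33.3% rose in each genotype, and 40.2% in KO and 39.4% in WT fell. On library totals Dld was the only 1 of these 6 called higher, and Suclg2 was called lower in both genotypes. Ogdh, Dlst and Dld form the 2-oxoglutarate dehydrogenase complex, and Dld also serves the pyruvate dehydrogenase complex. Dld (chr12:31331277-31351453) stood at 123, 120, 122 and 113 CPM in KO CTX, against 59.3, 56.3, 65.9 and 50.6 CPM in KO normal libraries. WT CTX libraries held 125, 118, 129 and 123 CPM, against 58.7, 73.5, 59.8 and 51.5 CPM in WT normal libraries. CTX libraries were close to each other and all above the normal ones, and the log2 fold change was 1.04 in KO (SE 0.10, adjusted p = 2.96e-07, edgeR) and 1.02 in WT (SE 0.10, adjusted p = 3.43e-07). Dlst rose by 0.70 and 0.68 on the log2 scale. Ogdh rose by 0.57 in KO and 0.65 in WT with TMM, though in KO it was at -0.04 on library totals.

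Succinyl-CoA ligase has a shared subunit, Suclg1, and a partner that sets whether ADP (Sucla2) or GDP (Suclg2) is used. Suclg1 rose by 0.62 in KO and 0.70 in WT on the log2 scale with TMM, and was at 0.00 and 0.08 on library totals. Sucla2 averaged 62.2 ± 2.59 CPM in KO CTX and 42.1 ± 5.90 CPM in KO normal libraries. Its means were 63.3 ± 1.32 CPM in WT CTX and 40.6 ± 3.24 CPM in WT normal libraries. It rose by 0.56 and 0.64 with TMM, while in KO it was at -0.05 on library totals. Suclg2 averaged 15.2 ± 1.22 CPM in KO CTX and 15.7 ± 1.94 CPM in KO normal libraries. In WT it averaged 15.3 ± 2.15 CPM in WT CTX and 16.5 ± 2.07 CPM in WT normal libraries, and was not called with TMM. On library totals it was at -0.66 in KO and -0.73 in WT (adjusted p = 0.00103 and 0.000466, edgeR).

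Succinate dehydrogenase, which is also complex II of the respiratory chain, is made of Sdha, the flavoprotein that oxidises succinate, Sdhb, the iron-sulphur subunit, and the membrane anchors Sdhc and Sdhd. Sdhb rose by 0.87 in KO and 1.06 in WT, and Sdhc by 0.97 and 1.0, on the log2 scale (adjusted p of 6.57e-06 or less in each, edgeR). Sdhd rose by 0.60 and 0.58 with TMM, and was at -0.01 and -0.04 on library totals. Sdha averaged 226 ± 15.7 CPM in KO CTX and 199 ± 17.5 CPM in KO normal libraries, a log2 fold change of 0.18 that was not called (adjusted p = 0.0817, edgeR). In WT it averaged 238 ± 8.06 CPM in CTX and 205 ± 13.7 CPM in normal libraries, a log2 fold change of 0.21 that was called (adjusted p = 0.042, edgeR). On library totals both turned and were called lower, at -0.43 in KO and -0.40 in WT (adjusted p = 0.000975 and 0.00173, edgeR). The WT call was lost without any 1 of KO CTX library 4, WT CTX libraries 2, 3 and 4, KO normal libraries 1, 2 and 3, and WT normal libraries 3, 5 and 6 (log2 0.16 to 0.22, adjusted p = 0.0509 to 0.179), and also with DESeq2's size factors (log2 0.19, adjusted p = 0.0807). A call was gained in KO without KO CTX library 3 (log2 0.23, adjusted p = 0.0469). The iron-sulphur subunit was counted 0.655 to 0.777 times as often as the flavoprotein in CTX and 0.364 to 0.499 times in normal libraries, a ratio chosen after its values were seen.

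Fumarase fell while the mitochondrial malate dehydrogenase showed the second largest rise after Irg1. Fh1, fumarase, averaged 39.5 ± 3.0 CPM in KO CTX and 63.6 ± 8.08 CPM in KO normal libraries. It averaged 41.3 ± 4.27 CPM in WT CTX and 70.3 ± 13.1 CPM in WT normal libraries. Its log2 fold change was -0.69 in KO and -0.77 in WT (adjusted p = 0.000164 and 5.92e-05, edgeR), and no library of one tissue overlapped the other. Mdh2 (chr5:135778480-135790398) stood at 331, 352, 335 and 337 CPM in KO CTX, against 117, 136, 118 and 102 CPM in KO normal libraries. WT CTX libraries held 334, 349, 322 and 362 CPM, against 139, 118, 110 and 105 CPM in WT normal libraries. All 8 CTX libraries lay in a narrow band far above the 8 normal ones, and the log2 fold change was 1.52 in KO (SE 0.11, adjusted p = 7.32e-09, edgeR) and 1.53 in WT (SE 0.11, adjusted p = 5.97e-09). Mdh1, the cytosolic malate dehydrogenase of the malate-aspartate shuttle, averaged 94.9 ± 6.75 CPM in KO CTX and 101 ± 16.6 CPM in KO normal libraries. In WT it averaged 91.3 ± 9.87 CPM in WT CTX and 95.3 ± 13.5 CPM in WT normal libraries, and was not called with TMM. On library totals it was at -0.71 in KO and -0.68 in WT (adjusted p = 0.000301 and 0.000449, edgeR).

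Among the genes that export and use citrate, Slc25a1, the mitochondrial citrate carrier, averaged 49.6 ± 6.28 CPM in KO CTX and 32.3 ± 1.36 CPM in KO normal libraries. Its means were 45.6 ± 1.54 CPM in WT CTX and 33.8 ± 3.59 CPM in WT normal libraries. It rose by 0.62 in KO and 0.43 in WT with TMM, while in WT it was at -0.19 on library totals. Acly, ATP citrate lyase, which turns the exported citrate into cytosolic acetyl-CoA, was at 0.28 in KO (adjusted p = 0.0172, edgeR) and 0.21 in WT (adjusted p = 0.0632), and at -0.34 and -0.41 on library totals. The KO call was lost without KO normal library 5 (log2 0.18, adjusted p = 0.0941), and with that library left out the WT value of 0.20 was called (adjusted p = 0.0459).

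The dicarboxylate carriers differed. Slc25a10, which exchanges malate or succinate for phosphate, averaged 22.5 ± 6.23 CPM in KO CTX and 40.9 ± 1.83 CPM in KO normal libraries. It averaged 20.5 ± 4.30 CPM in WT CTX and 40.5 ± 4.88 CPM in WT normal libraries. It fell by 0.87 in KO and 0.98 in WT on the log2 scale (adjusted p = 0.000371 and 0.000127, edgeR). Slc25a11, the 2-oxoglutarate and malate carrier, was at 0.24 in KO, not called, and at 0.31 in WT (adjusted p = 0.0333, edgeR), with -0.38 and -0.32 on library totals. Its WT call was lost without WT CTX library 3 or 4 or WT normal library 3, 5 or 6 (log2 0.21 to 0.32, adjusted p = 0.0579 to 0.144), and with DESeq2's size factors (log2 0.28, adjusted p = 0.0526). Overlapping exons on the other strand make up 8.92% of Slc25a11 (Rnf167) and 6.6% of Slc25a10 (Gm11788).

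Counted by gene, 17 members were higher and 7 lower in both genotypes, 3 were called in 1 genotype only (Sdha, Acly and Slc25a11, with no call for a difference between the genotypes) and 4 in neither (Me1, Aco1, Suclg2 and Mdh1), and none was called in opposite directions. Of all tested genes, 73.6% were called in KO and 72.7% in WT, so many calls shared by the genotypes are not particular to these members. The share of all genes called the same way in both was not computed. Leaving out KO normal library 5 and WT normal library 6 together, an alternative chosen after seeing the data, gave 17 higher and 7 lower in KO and 17 higher and 7 lower in WT. Acly in KO (log2 0.18, adjusted p = 0.0522, edgeR) and Sdha and Slc25a11 in WT (log2 0.15 and 0.27, adjusted p = 0.111 and 0.0911) were the members that lost their call then. The same members lost it when the 3 libraries with Xist were left out, which gave 17 higher and 7 lower in each genotype.

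Ratios of the counts of 2 genes within a library do not depend on how libraries are scaled, and they set isoforms and branches against each other. The ratio of Mdh2 to Mdh1 was 3.49, 3.37, 3.72 and 3.72 in KO CTX, against 0.965, 1.3, 1.22 and 1.26 in KO normal libraries. It was 4.05, 3.99, 3.57 and 3.44 in WT CTX, against 1.27, 1.23, 1.11 and 1.37 in WT normal libraries. Mitochondrial over cytosolic malate dehydrogenase was thus higher in every CTX library, with a log2 difference of 1.6 in both genotypes. The ratio of Idh3a to Idh1 was 0.531 to 0.749 in CTX and 0.204 to 0.279 in normal libraries, with log2 differences of 1.41 in KO and 1.43 in WT. Sucla2 over Suclg2 was 3.63 to 5.25 in CTX and 2.19 to 2.78 in normal libraries, with log2 differences of 0.62 and 0.76.

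The branch from pyruvate to oxaloacetate, set against that to acetyl-CoA as Pcx over Pdha1, was 0.0119 to 0.0334 in CTX and 0.0532 to 0.112 in normal libraries, with log2 differences of -1.76 in KO and -2.42 in WT. Acly over Cs, citrate use in the cytosol against citrate synthesis, was 1.14 to 1.28 in CTX and 1.68 to 2.27 in normal libraries, with log2 differences of -0.54 and -0.71. Irg1 over Cs was 2.39 to 14.1 in CTX and 0.112 to 0.562 in normal libraries, with log2 differences of 4.88 and 4.06. These 6 ratios did not overlap between tissues in either genotype. Each had an exact two-sided permutation p of 0.0286, the smallest that 4 against 4 libraries can give, and an adjusted p of 0.0703 over the 32 tests of 8 ratios in 4 comparisons, so none passed 0.05. Even full separation of all 8 ratios between the tissues in both genotypes could not have brought the adjusted p under 0.05. The adjusted p therefore cannot decide whether these ratios differ between the tissues.

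The other 2 ratios behaved differently. Idh2 over Idh1, the mitochondrial over the cytosolic NADP-linked enzyme, was 0.73 to 0.918 in CTX and 0.757 to 0.935 in normal libraries, with log2 differences of -0.08 in KO (exact permutation p = 0.514, adjusted 0.748) and -0.16 in WT (exact permutation p = 0.0286, adjusted 0.0703). Me2 over Me1 was 52.8 to 114 in CTX and 58.7 to 136 in normal libraries, and it overlapped in both genotypes. Of ratios chosen after their values were seen, Idh3a over Idh3g, the catalytic subunit over a regulatory one, was 0.928 to 1.17 in CTX and 0.302 to 0.45 in normal libraries. Fh1 over Mdh2, consecutive enzymes of the cycle, was 0.101 to 0.131 in CTX and 0.443 to 0.809 in normal libraries.

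**Figure D3:**
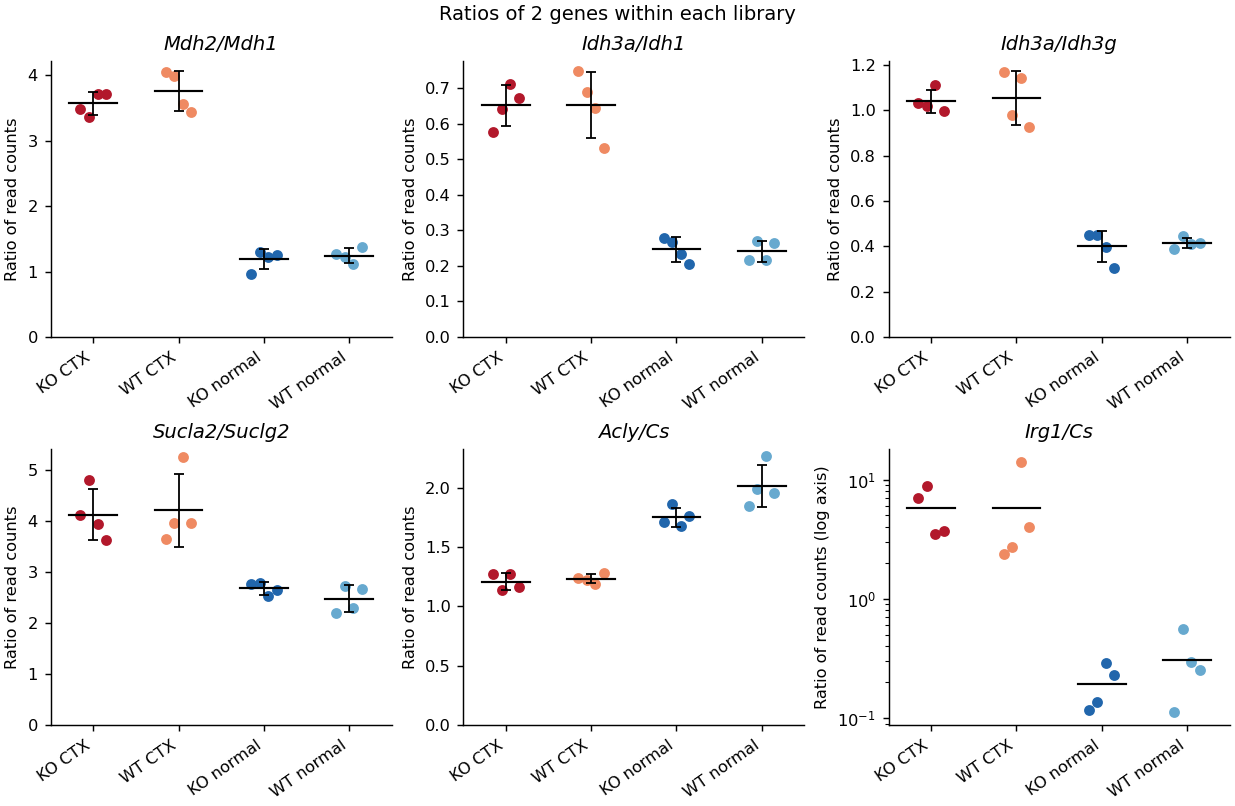
Ratio of the read counts of 2 genes in each library of the 4 groups (vertical axis, logarithmic for Irg1/Cs). Horizontal lines are group means and bars 1 SD (left out for Irg1/Cs), with n = 4 libraries a group; each ratio shown is separated between CTX and normal libraries, Acly/Cs being lower and the others higher in CTX libraries, and Idh3a/Idh3g was chosen after its values were seen.

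To compare levels between genes, CPM were divided by the annotated exon length in kb. Irg1 led the 31 genes in CTX-injected muscle, at 535 ± 268 CPM per kb in KO CTX and 555 ± 562 CPM per kb in WT CTX (SD, n = 4 each), but was the 25th of 31 in KO normal (10 ± 4.55 CPM per kb) and the 19th in WT normal libraries (14.9 ± 9.63 CPM per kb). Sdhd came next in CTX libraries, at 106 ± 4.42 CPM per kb in KO and 104 ± 4.67 CPM per kb in WT, and led in normal libraries, at 70.1 ± 9.70 CPM per kb in KO and 69.3 ± 8.57 CPM per kb in WT. Mdh2 was the third in both CTX groups (95.1 ± 2.58 CPM per kb in KO and 95.9 ± 4.90 CPM per kb in WT) and the 10th in both normal groups (33.2 ± 3.91 and 33.1 ± 4.21 CPM per kb). Idh1, by contrast, was the 10th in KO CTX and the 9th in WT CTX libraries, and came right after Sdhd in both normal groups. Suclg2, Pcx and Me1 held the last places in all 4 groups, Me1 at 0.200 to 0.266 CPM per kb and Pcx at 0.309 to 0.95 CPM per kb on average.

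**Figure D4:**
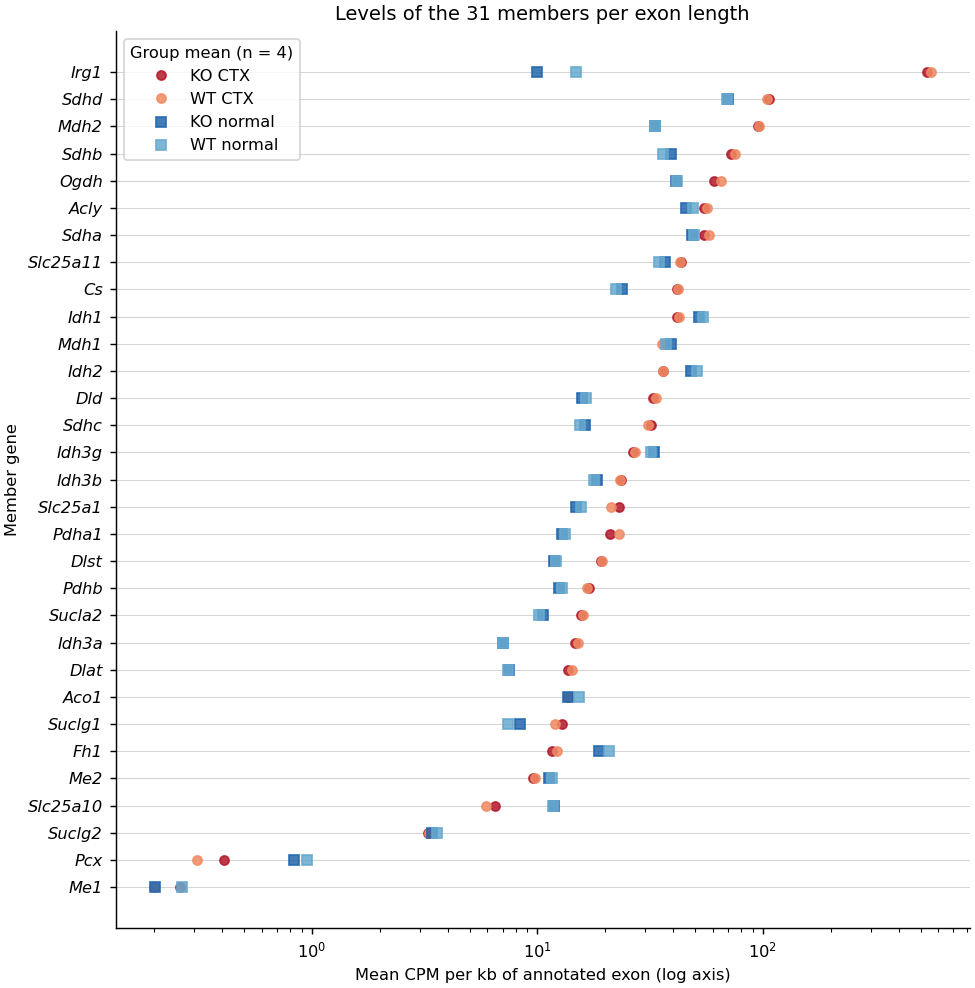
Mean CPM per kb of annotated exon (horizontal axis, logarithmic) of the 31 genes in the 4 groups, ordered by the KO CTX mean, with each point a mean of n = 4 libraries and no error drawn. Irg1 lies at 535 and 555 in KO CTX and WT CTX and at 10 and 14.9 in KO normal and WT normal, and Me1 is the lowest in every group.

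The median coefficient of variation over the 31 genes was 6.63% in KO CTX and 6.83% in WT CTX, and 11.8% in KO normal and 12.1% in WT normal libraries. The highest value was that of Irg1 in each group, 50.1% in KO CTX, 101% in WT CTX, 45.4% in KO normal and 64.6% in WT normal libraries. Pcx came next among CTX groups, at 35.2% in KO and 27.6% in WT, and Slc25a10 was at 27.7% and 21%.

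The genotype comparison asks whether loss of Glud1 altered these genes, and none of the 31 was called. In CTX-injected muscle 0 members passed the test of KO against WT (edgeR, 0 with an unadjusted p under 0.05), against a background of 0.00733% of all tested genes passing it. An unadjusted p under 0.05 was found for 910 of 13649 tested genes. The smallest adjusted p of the members was 0.921, for Pdha1, at a log2 fold change of -0.15 (95% interval -0.37 to 0.07). The 95% intervals of 27 members lay within 0.5 of 0 on the log2 scale, and the other 4 were Pcx (0.41, interval -0.23 to 1.05), Me1 (0.39, interval -0.25 to 1.02), Slc25a10 (0.13, interval -0.25 to 0.51) and Irg1 (-0.05, interval -1.26 to 1.16). Libraries of the 2 genotypes did not overlap for 1 member, Ogdh, at 336, 321, 339 and 334 CPM in KO CTX, against 363, 371, 348 and 342 CPM in WT CTX libraries. Of all tested genes, 5.7% did not overlap. DESeq2 and limma's voom also called 0 members, with 0 at an unadjusted p under 0.05 in each, against 0.315% and 0.821% of all genes. Without WT CTX library 3, the Irg1 value was 0.95 (unadjusted p = 0.0639, adjusted p = 0.782, edgeR). Macrophage marker sums did not overlap between the genotypes in CTX-injected muscle, at 14400 to 17300 CPM in KO CTX and 20800 to 24600 CPM in WT CTX libraries. Lyz2, the most abundant of these markers, stood at 7680, 9380, 7690 and 7320 CPM in KO CTX, against 14300, 15800, 15900 and 13500 CPM in WT CTX libraries. Fcgr1 went the other way, at 378, 376, 389 and 373 CPM in KO CTX, against 263, 283, 353 and 342 CPM in WT CTX libraries. The remaining macrophage markers each overlapped between the genotypes. Fibroblast sums did not overlap either, at 54.3 to 68.7 CPM in KO CTX and 75.8 to 99.8 CPM in WT CTX libraries. Their part in the genotype values was not tested.

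In normal muscle KO and WT gave 0 calls among the members (0 with an unadjusted p under 0.05, edgeR) and 0% of all genes. An unadjusted p under 0.05 was found for 390 of 13649 tested genes. The 95% intervals of 28 members lay within 0.5 of 0 on the log2 scale, the others being Pcx (-0.18, interval -0.76 to 0.39), Me1 (-0.40, interval -1.0 to 0.21) and Irg1 (-0.58, interval -1.81 to 0.66). Aco1 was the 1 member whose libraries did not overlap, at 61.6, 58.5, 63.4 and 62.2 CPM in KO normal, against 67.1, 63.5, 76.4 and 68.2 CPM in WT normal libraries, beside 1.08% of all tested genes. Its log2 fold change was -0.16 (adjusted p = 0.991, edgeR). DESeq2 called 0 members, with 0 at an unadjusted p under 0.05, and limma's voom called 0, with 2 (Aco1 and Suclg1), against 0% of all genes by either tool.

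The difference between the CTX effects of KO and WT (the interaction) was called for 0 members and 0% of all genes by edgeR, with 0 members at an unadjusted p under 0.05 in edgeR, DESeq2 and voom alike. By edgeR, 646 of 13649 tested genes had an unadjusted p under 0.05. The intervals of 26 members lay within 0.5 of 0 on the log2 scale, the others being Pcx (0.59, interval -0.27 to 1.45), Me1 (0.78, interval -0.09 to 1.66), Sdhb (-0.19, interval -0.52 to 0.13), Slc25a10 (0.12, interval -0.41 to 0.64) and Irg1 (0.53, interval -1.20 to 2.25). DESeq2 called 0.352% and voom 0.0806% of all genes. Without WT CTX library 3 the Irg1 value was 1.53 (unadjusted p = 0.0319, adjusted p = 0.859, edgeR), the smallest p of the members then. No ratio had an exact permutation p below 0.0571 between the genotypes, the lowest being that of Me2 over Me1 in CTX (log2 difference -0.40) and of Acly over Cs in normal muscle (log2 difference -0.20), with an adjusted p of 0.114 each.

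A list of 37 further genes of the same pathways was read from the same fit, of which 35 passed the filter on low counts and Ogdhl and Pck1 did not. In KO 15 were higher and 12 lower after CTX, and in WT 13 higher and 13 lower, 77.1% and 74.3% of those tested, near the background of all genes. Their median log2 fold change was -0.09 in KO and -0.15 in WT, and 0 were called for genotype or interaction by edgeR (4 with an unadjusted p under 0.05 in CTX-injected muscle, 0 in normal muscle and 2 for the interaction). On library totals 2 were higher in KO and 2 in WT.

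Among these, Pdk2 and Pdk4, kinases that switch pyruvate dehydrogenase off, fell. Pdk2 stood at 1.73, 2.26, 3.13 and 2.03 CPM in KO CTX, against 15.6, 16.2, 13.4 and 15.8 CPM in KO normal libraries. In WT it stood at 1.47, 1.28, 1.46 and 2.09 CPM in WT CTX, against 18.0, 12.1, 17.7 and 14.5 CPM in WT normal libraries. It fell by 2.74 in KO and 3.30 in WT on the log2 scale (adjusted p = 1.09e-08 and 2.57e-09, edgeR). Pdk4 averaged 0.303 ± 0.363 CPM in KO CTX and 1.92 ± 0.304 CPM in KO normal libraries. Its means were 0.146 ± 0.176 CPM in WT CTX and 2.23 ± 0.996 CPM in WT normal libraries. Its log2 fold change was -2.63 in KO (-3.67 without KO CTX library 2) and -3.88 in WT (-5.10 without WT CTX library 1), with adjusted p = 0.0034 and 0.000378 (edgeR).

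Acss1, which makes acetyl-CoA from acetate in mitochondria, stood at 18.4, 16.7, 19.1 and 24.3 CPM in KO CTX, against 80.8, 82.1, 86.1 and 102 CPM in KO normal libraries. In WT it stood at 18.5, 16.4, 13.8 and 27.5 CPM in WT CTX, against 83.4, 78.1, 103 and 91.1 CPM in WT normal libraries. No CTX library reached the lowest normal one, and the log2 fold change was -2.16 in KO and -2.22 in WT (adjusted p = 4.15e-08 and 3.04e-08, edgeR). Sucnr1, the cell-surface receptor for succinate, and Dhtkd1, a relative of Ogdh in lysine breakdown, were near the limit of detection. Sucnr1 had 7 counts in all KO CTX against 104 in all KO normal libraries, and 2 in WT CTX against 66 in WT normal libraries. On the TMM scale the ratio of normal over CTX was 10.9 (95% counting interval 5.09 to 27.7) in KO and 23.2 (6.16 to 195) in WT. It was called lower in both (adjusted p = 0.000694 and 0.000647, edgeR), with a fitted log2 fold change of -3.39 in KO (-4.14 without KO CTX library 3) and -4.29 in WT (-6.86 without WT CTX library 4). Dhtkd1 had 0 counts in all KO CTX against 50 in all KO normal libraries, at least 12.2-fold lower with a floor of 3 counts over the group. It had 3 in WT CTX against 31 in WT normal libraries, a ratio of normal over CTX of 7.25 (2.26 to 37.1). It was called lower in both (adjusted p = 3.18e-05 and 0.00267, edgeR), and its fitted WT log2 fold change of -2.70 was -3.65 without WT CTX library 4. These intervals cover counting error only, since amplified reads are not independent molecules.

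Other listed genes of pyruvate handling had smaller changes. Pdp1, the phosphatase that switches pyruvate dehydrogenase back on, averaged 40.8 ± 3.84 CPM in KO CTX and 18.0 ± 2.62 CPM in KO normal libraries. It averaged 42.8 ± 4.43 CPM in WT CTX and 18.9 ± 5.25 CPM in WT normal libraries, and rose in both (adjusted p = 8.39e-06 and 8.74e-06, edgeR). Pdk1 rose by 0.82 in KO and 0.95 in WT on the log2 scale, so the kinases did not share a direction, and Pdk3 was not called. These genes were named after their values were seen.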

How the data were processed

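Per the labels' protocols, RNA of the sorted cells (16 libraries, 4 in each group) was purified on Qiagen RNeasy Micro columns and made into libraries with SMART-Seq V4, which copies whole transcripts without marking their strand. The authors deposited raw read counts per gene symbol, whole numbers with no normalization. The submitters' processing notes name FastQC 0.11.7, cutadapt 1.18, HISAT2 2.1.0, and featureCounts of Subread 1.6.2, with mm10; the annotation and the handling of multi-mapped reads are not given in the sources used here. Total counts per library were 17051892 to 23097420. Pairs of libraries of 1 group differed beyond sampling noise (chi-square per degree of freedom 6.33 to 104 over 24 pairs, genes with 20 or more summed counts), so none was merged as a copy of another; this does not show that they came from separate animals.

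Genes were filtered with filterByExpr, which kept 13649 of 24421, scaled with TMM factors and tested with edgeR 4.0.16 (quasi-likelihood test, 1 coefficient per group, all 16 libraries, R 4.3.3), with Benjamini-Hochberg adjustment over all tested genes and a threshold of 0.05. The code was tested on simulated data. SE are those implied by the F statistic, and 95% intervals use its degrees of freedom. Ratios of 2 counts, with 0.5 added to each for the log2 difference, were compared with exact two-sided permutation tests. Exon lengths, coordinates and overlaps come from GENCODE M21 (31 of 31 genes matched, Irg1 as Acod1), and promoters from RefSeq. Values in every library were given for Irg1, Glud1 and members called with an absolute log2 fold change of at least 1 in both genotypes; further pathway genes were named from 1.5 upward, and exceptions are marked. Values of 1 listed pathway gene are not reported here. The members and lists were chosen with earlier results of these data known. Alternatives were library totals, DESeq2 size factors, DESeq2 1.42.0, limma 3.58.1 voom with quality weights, no filter, libraries without Xist only, a replicate block and leaving out each library. Same-numbered KO and WT libraries of normal muscle deviated together (correlations 0.64, 0.57 and 0.24), though the labels do not state a pairing. The main fit did not pair them. Only the replicate block treated same-numbered libraries as pairs.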

Additional observations from a re-analysis of the deposited data

Results flagged for a closer look

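Of 124 combinations of a member and a group, 7 held 1 library far from the other 3 of its group. That share is near the 5% of groups that chance alone gives, so the values below are listed without a reading about these libraries. Irg1 in WT CTX library 3 was at 3650 CPM, against 559 to 974 CPM in the other WT CTX libraries. KO CTX library 2 stood apart for Pdhb, at 74.4 CPM against 62.2 to 63.0 CPM in the others, and for Slc25a1, at 58.9 CPM against 45.7 to 47.6 CPM. WT CTX library 4 stood apart for Idh2, at 111 CPM against 86.8 to 88.8 CPM, and for Sdhc, at 114 CPM against 95 to 97.1 CPM. In normal muscle, Idh1 was at 124 CPM in KO library 5, against 149 to 154 CPM in the others, and Acly at 228 CPM in WT library 6, against 266 to 272 CPM. These last libraries are those with the most Malat1 in their groups, and the part of RNA quality was not tested.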

How the results depend on the processing

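Scaling by library totals changed the most. With it, 6 members were higher and 14 lower in KO CTX against KO normal (18 and 7 with TMM), and 8 higher and 14 lower in WT (19 and 7 with TMM). Further pathway genes higher numbered 2 in KO (15 with TMM) and 2 in WT (13 with TMM), and those lower in WT 21 (13 with TMM). Directions turned then for Pdhb (log2 -0.17 in KO and -0.23 in WT), Idh3b (-0.26 and -0.24), Sdha (-0.43 and -0.40), Sdhd (-0.01 and -0.04), Acly (-0.34 and -0.41) and Slc25a11 (-0.38 and -0.32), for Me1 (-0.23), Ogdh (-0.04) and Sucla2 (-0.05) in KO, and for Slc25a1 (-0.19) in WT. Members kept 13 of 25 calls in KO and 15 of 26 in WT. Aco1, Suclg2 and Mdh1 in both genotypes and Me1 in WT gained a call, lower in each. Aco1 in KO, at -0.01, turned to 0.04 with no filter and 0.02 with voom. Without the filter Me2 and Idh1 lost their calls in KO, and Me2, Idh3g and Sdha in WT.

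Leaving out 1 library at a time gave 17 to 19 members higher and 5 to 7 lower in KO, and 17 to 20 higher and 4 to 7 lower in WT, the 4 without WT normal library 2. It turned the sign of uncalled values near 0: Aco1 in KO ranged from -0.05 to 0.05 (0.05, 0.00 and 0.02 where turned), Suclg2 in KO from -0.15 to 0.01, Mdh1 in KO from -0.20 to 0.02 and Mdh1 in WT from -0.17 to 0.00. Genotype and interaction gave 0 member calls under each alternative run.

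With the replicate number as a block, 4 members were lower in KO and 3 in WT (7 each without it), and 7 further pathway genes were higher in WT (13 without it). Of 64 called results, 49 held and 15 lost their call with their direction kept. These were Pcx (adjusted p = 0.0574 in KO and 0.0543 in WT, edgeR), Me2, Idh1 and Idh3b in both genotypes, Acly in KO, and Pdhb, Idh3g, Sdha, Slc25a11, Sucnr1 and Dhtkd1 in WT (the last 2 at adjusted p = 0.0681 and 0.0934). The numbers of CTX and normal libraries, and of KO and WT CTX libraries, do not pair them by the data (correlations -0.12 to 0.07), and the block leaves fewer degrees of freedom. With the block, the CTX effect rests only on numbers found in both tissues. These are 1, 2 and 3 in KO and 2 and 3 in WT, so a lost call is not from a test on all libraries. For KO against WT in normal muscle, where same-numbered libraries deviated together, the block changed no member call. The median log2 fold change of the members there was -0.1 (-0.03 without the block). With the block 5 members lay above the median of all genes (14 without it). Fh1 was then at -0.27 (unadjusted p = 0.0268, adjusted p = 0.798, edgeR). The cause of these changes was not tested. Counts of 0 to 7 limit Sucnr1 and Dhtkd1.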
